A study of Mus musculus with 18 samples.

Results

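The livers compared here came from ovariectomized mice with diet-induced obesity (DIO) that received 17β-estradiol (E2) or vehicle, and they make up 6 of the 18 liver RNA-seq libraries of the study. They were chosen by their labels, as the 3 E2 livers WE3, WE18 and WE14 and the 3 vehicle livers WV7, WV8 and WV9. All mice were female wild-type C57BL/6 mice. They ate a high-fat diet in which fat gave 45% of the calories and to which 0.2% cholesterol was added. Their ovaries were removed after 1 week on the diet, so that both groups lacked the main source of estrogen, and an osmotic minipump then released a daily E2 dose of 5 µg for each kg of body weight, or vehicle alone, for 6 weeks. The labels speak of biological replicates and of 2 sequenced samples a group, while 3 libraries a group were deposited and used. A liver is the unit of replication throughout. 3 livers of DIO mice given PaPE-1, another estrogen receptor ligand, entered the fits only to help estimate the spread. The comparison was set beside E2 and vehicle in 6 livers of ob/ob mice, which lack leptin, were also ovariectomized females and ate a normal diet. The age of the mice is not given in the sources used here.

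Estradiol acts in liver mainly through estrogen receptor α, encoded by Esr1, a nuclear receptor of hepatocytes that binds DNA at estrogen response elements and also signals from the membrane. Many liver genes differ between the sexes in mice, and most of this difference is set by the rhythm of growth hormone release, which estrogens alter in the brain and pituitary, with STAT5B, BCL6 and CUX2 as the factors that carry it in hepatocytes. Loss of estrogen is known for raising liver fat, and its replacement for lowering it.

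The 6 libraries held between 19347667 and 21424489 counts over 40840 genes. Values are given in CPM, a gene's counts scaled to a common library size with TMM factors. A change is the log2 fold change of E2 over vehicle, given ± its standard error. Hepatocyte markers defined every library, with albumin (Alb) between 61828 and 97969.8 CPM. The acinar pancreas genes Prss1 and Pnlip and the fat cell gene Plin1 had 0 counts in all 6. In bulk tissue, fewer cells of a type and less RNA per cell cannot be told apart. A read shared by near-identical genes can be assigned to either or dropped, so the values of genes in such families are uncertain between members of each family. The Cyp3a, Cyp2b, Cyp2c, Mup, Serpina1 and Serpina3 genes are among them, and this list is not complete.

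The E2 liver WE14 stood apart from WE3 and WE18. On the first principal component of the 6 livers, which held 39.7% of the variance, WE3 and WE18 scored -40.9 and -22.8 and WE14 26.5, against 8.70 to 15.6 for the vehicle livers. On the second component, with 28.0%, WE18 and WE14 scored 31.0 and 18.7. WE3 scored -13.6 there, within the -25.8 to 4.07 of the vehicle livers. Across the 13884 genes tested, the Spearman correlation of WE14 was between 0.984 and 0.989 with the vehicle livers, and 0.970 and 0.982 with WE3 and WE18. WE3 and WE18 correlated at 0.984 with each other and at 0.979 to 0.984 with the vehicle livers. In the genes past a fold of 2 and an unadjusted p of 0.05 when WE18 was left out, WE18 itself lay beyond all 3 vehicle livers for 42 of 45 higher and 60 of 70 lower genes. The same count for WE3 was 43 of 81 and 74 of 130, and for WE14 it was 50 of 146 and 119 of 291. The median share of the difference that the left-out liver reached was 1.09 and 0.803 in WE18, 0.466 and 0.452 in WE3, and 0.133 and 0.116 in WE14, for higher and lower genes. WE14 thus carried a small part of the difference seen in the other E2 livers. What sets WE14 apart was not tested. Counts and most log2 fold changes are therefore given with all 3 E2 livers and without WE14, and since WE14 was set aside because of its values, the p-values without it describe WE3 and WE18 and are too small as a test of E2.

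With all 3 E2 livers, no gene of 13884 passed an adjusted p of 0.05 in either direction by edgeR's quasi-likelihood test with Benjamini-Hochberg adjustment (0%), the smallest adjusted p being 0.419. The unadjusted p was under 0.05 for 378 higher and 347 lower genes. DESeq2's Wald test called 18 higher and 5 lower, and limma voom called 0 and 0. A fold over 2 together with such a p was reached by 77 higher (0.555%) and 100 lower genes (0.72%). Every E2 liver lay above every vehicle liver for 631 genes (4.54%) and below for 767 (5.52%). For a single gene, permuting 3 and 3 livers exactly allows no p under 0.1, so such tests were left out. Without WE14, 67 of 14124 genes were higher (0.474%) and 66 lower (0.467%) at an adjusted p under 0.05. Leaving out WE3, WE18 or any vehicle liver in place of WE14 gave 0 such genes each time.

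**Figure D1:**
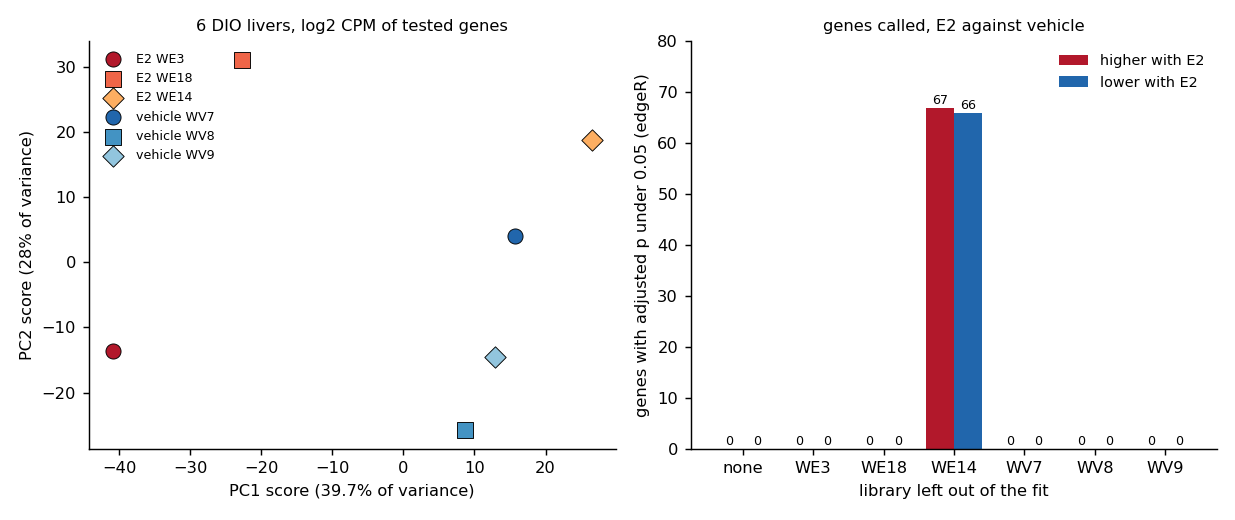
Left, scores of the 6 DIO livers on the first and second principal components of log2 CPM over the 13884 tested genes, E2 livers in red to orange and vehicle livers in blue. Right, number of genes higher (red) and lower (blue) with E2 at an adjusted p under 0.05 in edgeR when no library or the named library is left out. On the first component WE14 lies on the side of the vehicle livers, and only its removal gives calls, 67 higher and 66 lower.

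Genes of female liver were higher in WE3 and WE18. Of 39 genes listed as female-biased, 38 were tested, 12 were higher and 2 lower without WE14 (0.474% and 0.467% of all genes tested), and their median log2 fold change was 0.97, against 0.01 over all genes tested. With all 3 E2 livers the median was 0.72, and 14 of the 38 were over 2-fold higher at an unadjusted p under 0.05 (0.555% of all genes) and 0 lower. 10 of the 38 lay above every vehicle liver in every E2 liver and 2 below, against 4.54% and 5.52% of all tested genes. By library, the median distance of the list from the vehicle mean on the log2 scale was 1.04, 0.91 and 0.23 in WE3, WE18 and WE14, against 0.04, -0.16 and 0.08 in WV7, WV8 and WV9. WE14 was thus above all 3 vehicle livers in this list, much nearer to them than to WE3 and WE18.

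Cyp3a44, a cytochrome P450 expressed in female liver, had 883, 569 and 12.8 CPM in the E2 livers WE3, WE18 and WE14, against 7.42, 5.2 and 10.6 CPM in the vehicle livers. WE3 and WE18 were far above all others, and WE14 was just above the highest vehicle liver. Its log2 fold change was 6.55 ± 0.84 without WE14 (adjusted p = 0.0309) and 5.98 ± 1.56 with all 3 livers, with an unadjusted p of 0.00694 in edgeR and an adjusted p of 0.00352 in DESeq2. The related Cyp3a16 was also highest in WE3 and WE18. It had 789, 813 and 62.2 CPM in the E2 livers WE3, WE18 and WE14, against 44.9, 37.1 and 89.7 CPM in the vehicle livers. Here WE14 was within the vehicle range, and the log2 fold change was 3.81 ± 0.56 without it (adjusted p = 0.0373) and 3.28 with it. Cyp3a41b, another member of the family, had 147, 94.8 and 12.8 CPM with E2, against 12.9, 6.55 and 16.6 CPM with vehicle. Its log2 fold change was 3.33 ± 0.40 without WE14 (adjusted p = 0.0101, log2 fold change 2.82 with all 3). Cyp3a11, the main Cyp3a enzyme of both sexes, had 1792, 2642 and 3428 CPM with E2, against 4046, 3411 and 4396 CPM with vehicle, and its value of -0.83 ± 0.21 without WE14 did not pass (adjusted p = 0.122, log2 fold change -0.59 with all 3).

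A1bg encodes a plasma glycoprotein that is female-biased in mouse liver. It had 1204, 742 and 65.3 CPM in the E2 livers WE3, WE18 and WE14, against 70.9, 40.4 and 77.5 CPM in the vehicle livers. Both WE3 and WE18 were well above the rest, WE14 lay among the vehicle livers, and the log2 fold change was 3.95 ± 0.40 without WE14 (adjusted p = 0.00374) and 3.41 with it. Cyp2c69 had 1354, 1155 and 254 CPM with E2, against 194, 272 and 239.5 CPM with vehicle, and was 2.42 ± 0.25 without WE14 (adjusted p = 0.00116, log2 fold change 1.97 with all 3). Smaller increases without WE14 came from the transporters Slc22a26 (1.58 ± 0.18) and Slc16a5 (1.0 ± 0.15), the sulfotransferase Sult3a2 (1.82 ± 0.33), the cytochrome Cyp2g1 (1.49 ± 0.25) and Cyp39a1 (1.06 ± 0.16), which hydroxylates oxysterols on the way to bile acids. With all 3 livers their log2 fold changes ran from 0.79 for Slc16a5 to 1.39 for Sult3a2. The adjusted p of these 5 without WE14 ran from 0.00156 for Slc22a26 to 0.0219 for Sult3a2.

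Some genes were higher in every E2 liver, WE14 included, among them the female-biased Cyp2a4 and Cyp17a1. Cyp2a4, a steroid hydroxylase of female liver, had 1267, 2156 and 1109 CPM with E2, against 644, 434 and 786 CPM with vehicle. All 3 E2 livers were above all vehicle livers, with a log2 fold change of 1.28 ± 0.27 (1.46 without WE14, unadjusted p = 0.000581 with all 3 in edgeR, adjusted p = 0.00365 in DESeq2). Dct, the dopachrome tautomerase of melanin synthesis, had the smallest p of edgeR with all 3 livers. It had 12.8, 12.9 and 6.97 CPM with E2, against 3.49, 3.8 and 4.02 CPM with vehicle, so that WE14 lay between the other E2 livers and the vehicle livers, and its log2 fold change was 1.52 ± 0.25 with all 3 (unadjusted p = 4.4e-05) and 1.76 ± 0.20 without WE14 (adjusted p = 0.00156). Tgm1, a transglutaminase, had 33.8, 52.1 and 22 CPM with E2, against 14.5, 11.2 and 16.3 CPM with vehicle, and Eci3, a peroxisomal enoyl-CoA isomerase, had 21.3, 21.2 and 10.3 CPM with E2, against 6.32, 7.12 and 7.56 CPM with vehicle. For both, the 3 E2 livers were above all vehicle livers, with log2 fold changes of 1.36 (1.62 without WE14) and 1.33 (1.6 without WE14). Cyp17a1, an enzyme of steroid hormone synthesis, had 286, 317 and 291 CPM with E2, against 171, 68.9 and 113 CPM with vehicle. WE14 was as high as WE3 here, and DESeq2 gave an adjusted p of 0.00457, while edgeR gave 1.34 ± 0.30 with an unadjusted p of 0.00122 (1.36 without WE14, adjusted p = 0.174).

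The female list was not uniform. Cyp2b13, a cytochrome counted among the female-biased genes, had 52.5, 89.3 and 324 CPM in the E2 livers WE3, WE18 and WE14, against 381, 439.6 and 349 CPM in the vehicle livers. It fell by 2.46 on the log2 scale without WE14 (adjusted p = 0.000417, log2 fold change -1.33 with all 3), opposite to the Cyp3a members. The transporter Slc22a29 had 2.35, 2.21 and 11.6 CPM with E2, against 14.6, 7.25 and 9.84 CPM with vehicle and was -2.21 ± 0.31 without WE14 (adjusted p = 0.00476, log2 fold change -0.97 with all 3). Of 45 male-biased genes, 40 were tested. Without WE14, 3 of the 40 were higher and 3 lower (0.474% and 0.467% of all genes tested), with a median of -0.10. With all 3 E2 livers the median was -0.20. There, 4 of the 40 rose and 6 fell past the fold of 2 with unadjusted p below 0.05 (0.555% and 0.72% of all genes). The E2 livers all lay above the vehicle livers for 2 of the 40 and below them for 5 (4.54% and 5.52% of all tested genes). Mup20, the major urinary protein darcin of male urine, had 16.4, 15.3 and 88.3 CPM in the E2 livers WE3, WE18 and WE14, against 101, 120.2 and 218 CPM in the vehicle livers. Each E2 liver was below each vehicle liver, WE14 only slightly, and the log2 fold change was -3.2 ± 0.32 without WE14 (adjusted p = 0.00148) and -1.87 with it. The male-biased cytochrome Cyp2d9 had 8.68, 13.6 and 29.6 CPM with E2, against 35.2, 51.6 and 48.7 CPM with vehicle, and was -2.02 ± 0.34 without WE14 (adjusted p = 0.0307, log2 fold change -1.38 with all 3). Mup14 was not on the male list. It had 0.0904, 0.0514 and 0.907 CPM with E2, against 2.11, 3.93 and 3.3 CPM with vehicle, and was -5.32 ± 0.98 without WE14 (adjusted p = 0.04, log2 fold change -3.13 with all 3). Mup3, which like Cyp2g1 and Slc16a5 was named after its values were seen, had 1191, 1239 and 2154 CPM with E2, against 1813, 2608 and 2154 CPM with vehicle and -0.85 ± 0.18 (adjusted p = 0.047, log2 fold change -0.52 with all 3). The 3 male-biased genes that were higher were Serpina1e, Serpina4-ps1 and Selenbp2. Serpina1e, an α1-antitrypsin gene, had 45.8, 44.1 and 3.82 CPM with E2, against 3.02, 5.15 and 4.9 CPM with vehicle. Its log2 fold change was 3.36 ± 0.31 without WE14 (adjusted p = 0.00116, log2 fold change 2.84 with all 3). Serpina4-ps1 and Selenbp2 were 2.29 ± 0.47 and 1.20 ± 0.24 without WE14 (adjusted p = 0.0448 and 0.0418, log2 fold changes 1.79 and 0.84 with all 3).

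**Figure D2:**
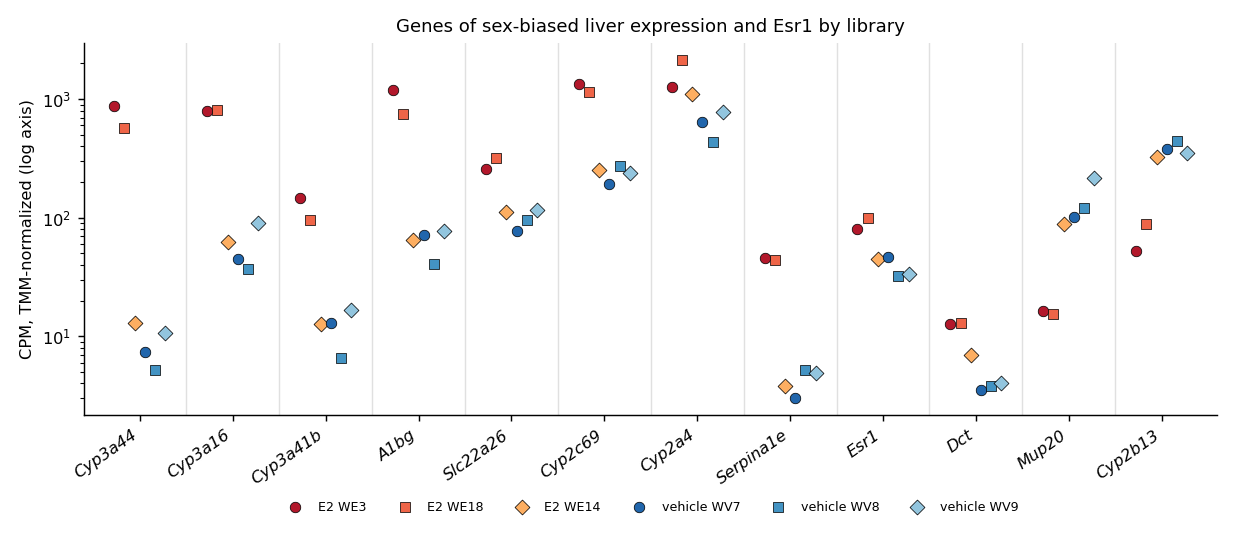
CPM on a log axis of 12 genes in the 6 DIO livers, for each gene the E2 livers WE3, WE18 and WE14 left of the vehicle livers WV7, WV8 and WV9. WE3 and WE18 are above the vehicle livers for the first 10 genes and below them for Mup20 and Cyp2b13, while WE14 is mostly near the vehicle livers, for example at 65.3 CPM of A1bg.

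Among the genes of the estrogen receptor pathway, the receptor itself was the one that passed without WE14. Esr1 had 81, 99 and 44.7 CPM in the E2 livers WE3, WE18 and WE14, against 46.5, 32.5 and 33.7 CPM in the vehicle livers. WE3 and WE18 were above all other livers, and WE14 was within the vehicle range. The log2 fold change of Esr1 was 1.26 ± 0.18 without WE14 (adjusted p = 0.00567) and 1.0 ± 0.26 with all 3 livers (unadjusted p = 0.0025). Of 36 receptors and coregulators listed, 32 were tested, 1 was higher and 0 lower without WE14 (0.474% and 0.467% of all genes tested), and their median was 0.02. Foxa3, a pioneer factor, had 28.9, 30.1 and 12 CPM with E2, against 14.5, 18.2 and 16.5 CPM with vehicle, and did not pass (adjusted p = 0.0746, log2 fold change 0.53 with all 3). The 6 libraries held 0 counts of Esr2 and 5 of Gper1, the other estrogen receptors. Pgr and Greb1, estrogen-induced genes of the reproductive tract, had 1 and 4 counts in all.

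On the growth hormone side, 21 of 21 listed genes were tested, and 0 passed without WE14. Cux2, a transcription factor of female liver, had 119, 86 and 54.7 CPM with E2, against 33.4, 39.3 and 46.9 CPM with vehicle. Every E2 liver was above every vehicle liver, with a log2 fold change of 1.12 ± 0.32 with all 3 (unadjusted p = 0.00582) and 1.36 ± 0.28 without WE14 (adjusted p = 0.06). The prolactin receptor gene Prlr had 648, 566 and 254 CPM with E2, against 262, 356 and 335 CPM with vehicle, and Igf1, the insulin-like growth factor that liver secretes, had 784, 781 and 466 CPM with E2, against 476, 525 and 444 CPM with vehicle. WE3 and WE18 were above all vehicle livers for both, with adjusted p of 0.0577 and 0.0538 without WE14 and log2 fold changes of 0.62 and 0.49 with all 3. Bcl6, the repressor of male liver, had 5.29, 3.24 and 9.93 CPM with E2, against 16.2, 8.99 and 6.69 CPM with vehicle, and its value of -1.31 ± 0.61 did not pass (adjusted p = 0.513, log2 fold change -0.78 with all 3).

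Promoter sequences are shown for 3 genes that rose without WE14 and hold the letters of a STAT5 element. RefSeq windows of 300 bases around gene starts (GRCm38.p6, not the GRCm39 of the counts) matched by symbol for 49 of the 67 higher and 50 of the 66 lower genes. TTCNNNGAA, which reads the same on both strands, was in 7 of the 49 windows of higher genes (14.3%) and 3 of the 50 of lower genes (6%), against 799 of 11141 windows of tested genes (7.17%) and 2288 of all 27025 windows (8.47%). The palindromic estrogen response element GGTCANNNTGACC was in 0 windows of either set, in 0 of the 11141 of tested genes and in 18 of all 27025 (0.0666%). Its half-site GGTCA, on either strand, was in 22 of 49 (44.9%) and 22 of 50 (44%), against 4261 of 11141 windows of tested genes (38.2%) and 40.2% of all windows. Elements outside these windows were not searched. The windows shown are those of the female-biased genes A1bg (chr15:60921221-60921520, minus strand) and Slc22a26 (chr19:7802618-7802917, minus strand), and of Hamp (chr7:30943980-30944279, minus strand), with TTCNNNGAA in capitals.
A1bg: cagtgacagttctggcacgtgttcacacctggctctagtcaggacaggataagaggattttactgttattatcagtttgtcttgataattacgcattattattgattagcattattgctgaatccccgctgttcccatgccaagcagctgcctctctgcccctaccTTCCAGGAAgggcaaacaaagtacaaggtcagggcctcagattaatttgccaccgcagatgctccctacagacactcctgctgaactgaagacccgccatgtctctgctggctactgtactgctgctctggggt
Slc22a26: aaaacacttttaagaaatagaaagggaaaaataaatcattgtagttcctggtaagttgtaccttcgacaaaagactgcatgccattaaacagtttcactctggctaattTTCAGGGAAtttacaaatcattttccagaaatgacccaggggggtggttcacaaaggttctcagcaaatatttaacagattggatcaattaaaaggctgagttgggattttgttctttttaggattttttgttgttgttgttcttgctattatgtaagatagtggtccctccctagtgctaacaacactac
Hamp: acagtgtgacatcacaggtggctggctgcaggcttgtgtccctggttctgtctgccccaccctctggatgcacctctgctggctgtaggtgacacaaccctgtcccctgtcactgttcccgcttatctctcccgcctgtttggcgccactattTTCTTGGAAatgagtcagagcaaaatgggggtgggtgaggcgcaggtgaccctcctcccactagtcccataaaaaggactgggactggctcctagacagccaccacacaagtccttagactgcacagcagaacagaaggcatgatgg

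Genes of triglyceride storage were lower in WE3 and WE18. Of 38 genes of triglyceride synthesis and lipid droplets, 36 were tested, and 0 were higher and 4 lower without WE14 (0.474% and 0.467% of all genes tested). Without WE14, 30 of the 36 had a log2 fold change below 0, against 6910 of the 14124 genes tested, and the median was -0.44. With all 3 E2 livers the median was -0.16, and 7 of the 36 lay below every vehicle liver in every E2 liver, against 5.52% of all tested genes. Cidec, a lipid droplet protein that enlarges droplets, had 0.769, 1.7 and 12.6 CPM in the E2 livers WE3, WE18 and WE14, against 19.3, 15.2 and 14.8 CPM in the vehicle livers. WE14 was below the lowest vehicle liver by little, and the log2 fold change was -3.75 ± 0.34 without WE14 (adjusted p = 0.000417) and -1.71 ± 0.86 with it (unadjusted p = 0.0865). Mogat1, a monoacylglycerol acyltransferase, had 0.723, 0.668 and 3.05 CPM with E2, against 5.07, 3.89 and 4.9 CPM with vehicle, lower in each E2 liver than in any vehicle liver. Its log2 fold change was -2.72 ± 0.38 without WE14 (adjusted p = 0.00469) and -1.63 with it. The fatty acid uptake receptor gene Cd36 had 154, 165 and 254 CPM with E2, against 317, 282 and 285 CPM with vehicle, also with no overlap of the groups, and was -0.89 ± 0.14 without WE14 (adjusted p = 0.011) and -0.63 ± 0.18 with all 3 (unadjusted p = 0.00435). Plin2, which coats hepatocyte lipid droplets, had 373, 356 and 879.6 CPM with E2, against 769, 714 and 770.0 CPM with vehicle. WE14 was the highest of the 6 for Plin2, so the log2 fold change of -1.04 ± 0.19 without WE14 (adjusted p = 0.0239) stood at -0.49 with it.

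Pparg, the nuclear receptor of fat cells that also drives lipid storage in fatty liver, had 10.3, 15.6 and 23 CPM in the E2 livers WE3, WE18 and WE14, against 31.3, 31.4 and 25.1 CPM in the vehicle livers. The 3 E2 livers were below the 3 vehicle livers, with log2 fold changes of -1.18 ± 0.19 without WE14 (adjusted p = 0.0101) and -0.84 ± 0.23 with it (unadjusted p = 0.00321). Car3, a carbonic anhydrase abundant in fat cells and in male liver, had 1375, 1929 and 2668 CPM with E2, against 3050.3, 3898 and 3824 CPM with vehicle, with the same order. Cfd, the complement factor adipsin, had 0.0904, 0.0514 and 3.2 CPM with E2, against 11.5, 13.4 and 9.7 CPM with vehicle, which is 2, 1 and 67 counts in the E2 livers against 240, 307 and 200 counts in the vehicle livers. Its log2 fold change was -7.2 ± 0.57 without WE14 (adjusted p = 0.000147) and -3.36 with it. Of 10 adipocyte markers, 6 were tested, 4 of them passed and all 4 were lower without WE14 (Cfd, Cidec, Car3 and Pparg), where 0.467% of all genes tested were lower. The summed level of the 10 was 1409, 1965 and 2748 CPM in the E2 livers, against 3148, 3992 and 3909.8 CPM in the vehicle livers, most of it Car3. The genes that define fat cells were near 0, with 2 counts of Adipoq, 1 of Lep and 0 of Plin1 in the 6 libraries together. Krt23, a keratin that appears in fatty and injured liver, had 1.04, 0.925 and 14 CPM with E2, against 9.81, 18.8 and 16.7 CPM with vehicle. Ociad2, a protein of endosomes and mitochondria, had 4.97, 4.88 and 31 CPM with E2, against 37.2, 31 and 32.3 CPM with vehicle, and its adjusted p of 6.34e-05 without WE14 was the smallest of all genes, at a log2 fold change of -2.76 ± 0.19. With WE14 the log2 fold changes of Krt23 (-3.93 without WE14, adjusted p = 0.0448) and Ociad2 were -1.51 and -1.3 (unadjusted p = 0.184 and 0.102).

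**Figure D3:**
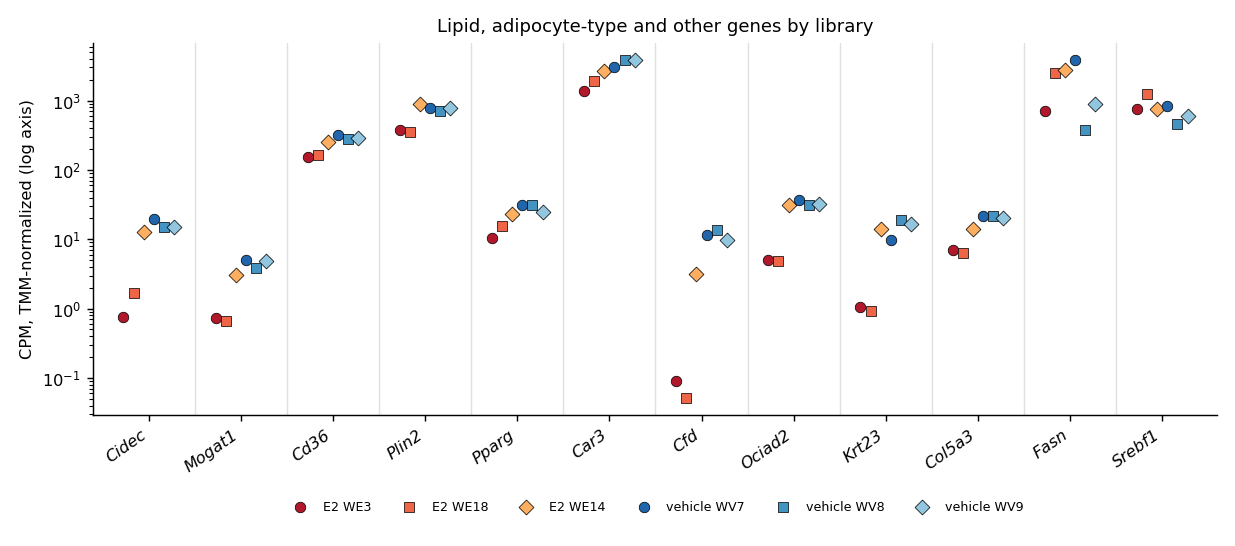
CPM on a log axis of 12 genes in the 6 DIO livers, the E2 livers left of the vehicle livers for each gene. WE3 and WE18 lie below all vehicle livers for the first 10 genes, for example at 0.769 and 1.7 CPM of Cidec, and WE14 lies nearer the vehicle livers, while Fasn and Srebf1 overlap between the groups.

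Genes of fatty acid oxidation were also mostly lower. All 46 listed genes were tested, and 0 were higher and 2 lower without WE14 (0.474% and 0.467% of all genes tested). Without WE14, 42 of the 46 were below 0, against 6910 of the 14124 genes tested, and the median was -0.31. With all 3 E2 livers the median was -0.17, and 6 of the 46 lay below every vehicle liver in every E2 liver (5.52% of all tested genes). The 2 that passed were Acot2, a mitochondrial acyl-CoA thioesterase (-1.19 ± 0.24), and Cyp4a32, an ω-hydroxylase (-1.16 ± 0.22). Both were highest in WE14, at 26.1 and 56.3 CPM, so their log2 fold changes with all 3 livers were -0.38 and -0.17. Cyp4a14, a PPARα target, had 836, 669 and 991 CPM with E2, against 1192, 1426 and 1340.4 CPM with vehicle, lower in each E2 liver than in any vehicle liver, with a log2 fold change of -0.67 ± 0.21 (unadjusted p = 0.00672) and no pass without WE14 (adjusted p = 0.147).

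Lipid and sterol synthesis varied as much within the groups as between them. Fasn, fatty acid synthase, had 713, 2489 and 2739.7 CPM in the E2 livers WE3, WE18 and WE14, against 3845, 375 and 885 CPM in the vehicle livers. The highest and the lowest of the 6 values were both from vehicle livers, and the log2 fold change was 0.22 ± 0.98 with all 3 E2 livers and -0.09 ± 1.19 without WE14 (adjusted p = 0.987). Srebf1, which encodes the SREBP-1 factor that drives Fasn, had 746, 1225 and 765 CPM with E2, against 834, 455 and 593 CPM with vehicle. It did not pass with all 3 livers (0.54 ± 0.26, unadjusted p = 0.0643) or without WE14 (adjusted p = 0.468). Of the 26 fatty acid synthesis genes and 25 cholesterol synthesis genes, all were tested and 0 passed without WE14. The median distance from the vehicle mean over the fatty acid synthesis list was -0.56, 0.15 and 0.59 in WE3, WE18 and WE14, against 0.75, -0.63 and -0.14 in WV7, WV8 and WV9. For cholesterol synthesis it was -0.52, 0.23 and 0.78 in WE3, WE18 and WE14, against 0.72, -0.57 and -0.09 in WV7, WV8 and WV9. WV7 and WE14 were high and WV8 and WE3 low in both lists.

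Kupffer cell markers were above the vehicle mean in all 3 E2 livers, WE14 included. All 24 were tested, all 24 had a log2 fold change above 0 with and without WE14, and 16 of the 24 lay above every vehicle liver in every E2 liver, where 4.54% of all tested genes did. The median was 0.52 with all 3 E2 livers and 0.57 without WE14, but 0 of the 24 passed without WE14, the smallest adjusted p being 0.0833 for Adgre1, the F4/80 antigen. Adgre1 had 42.7, 26.3 and 24.5 CPM with E2, against 17.7, 17.9 and 20.9 CPM with vehicle. Timd4, a receptor of resident Kupffer cells for dying cells, had 18, 12.9 and 11.9 CPM with E2, against 6.46, 7.77 and 10.4 CPM with vehicle, and Csf1r, the receptor of their growth factor, had 109, 73.1 and 71.1 CPM with E2, against 54, 63.9 and 60.6 CPM with vehicle. In each of these 3 genes no E2 liver fell within the vehicle range, and WE3 was the highest. The summed level of the list was 1908, 1516 and 1413 CPM in the E2 livers, against 1018, 1209 and 1326 CPM in the vehicle livers. Genes of lipid-associated macrophages and monocytes did not follow, with a median of 0.05 with all 3 livers and -0.10 without WE14. Of 30 tested without WE14, Cd36 alone passed, as a lower gene (0.467% of all genes tested). The part of cell numbers in these differences, and in those of the other lists, was not tested.

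Interferon response genes were also mostly higher with E2. All 40 were tested, 37 were above 0 with all 3 E2 livers and 12 lay above every vehicle liver in every E2 liver (4.54% of all tested genes), with a median of 0.43. WE14 was the highest here, and without it the median was 0.31 and 0 of the 40 passed. The GTPase gene Igtp had 67.9, 93.3 and 192 CPM with E2, against 44.4, 54.1 and 62.8 CPM with vehicle, the highest value being that of WE14. By library the list stood at 0.32, 0.30 and 0.56 in WE3, WE18 and WE14, against -0.37, 0.19 and 0.17 in WV7, WV8 and WV9.

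Collagen and matrix genes were mostly lower. Of 52 listed, 51 were tested, and 43 of the 51 were below 0 without WE14, against 6910 of the 14124 genes tested. With all 3 E2 livers, 16 of the 51 lay below every vehicle liver in every E2 liver, where 5.52% of all tested genes did. The median was -0.31 with all 3 E2 livers and -0.32 without WE14, and 1 of the 51 passed without WE14, as a lower gene (0.467% of all genes tested). That gene was Col5a3, a chain of collagen V, with 6.96, 6.32 and 13.9 CPM in the E2 livers WE3, WE18 and WE14, against 21.6, 21.9 and 20.5 CPM in the vehicle livers. WE14 lay between the other E2 livers and the vehicle livers, and the log2 fold change was -1.68 ± 0.26 without WE14 (adjusted p = 0.0101) and -1.23 ± 0.32 with it (unadjusted p = 0.00283). Col1a1 and Col3a1, chains of the fibrillar collagens of scar tissue, had 12.5, 10.2 and 10.7 CPM with E2, against 20.1, 18.7 and 38.2 CPM with vehicle for Col1a1 and 49.1, 39.9 and 55 CPM with E2, against 81.1, 76.7 and 127 CPM with vehicle for Col3a1. The vehicle liver WV9 was the highest for both, and neither passed (log2 fold changes of -1.2 and -0.98 with all 3 livers and -1.18 and -1.09 without WE14, unadjusted p = 0.00759 and 0.00889). Stellate cell markers had a median of 0.15, with 0 of 20 called. Col4a1 and Col15a1, of basement membranes, were at -0.29 and -0.27 with all 3 livers (unadjusted p = 0.104 and 0.152).

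**Figure D4:**
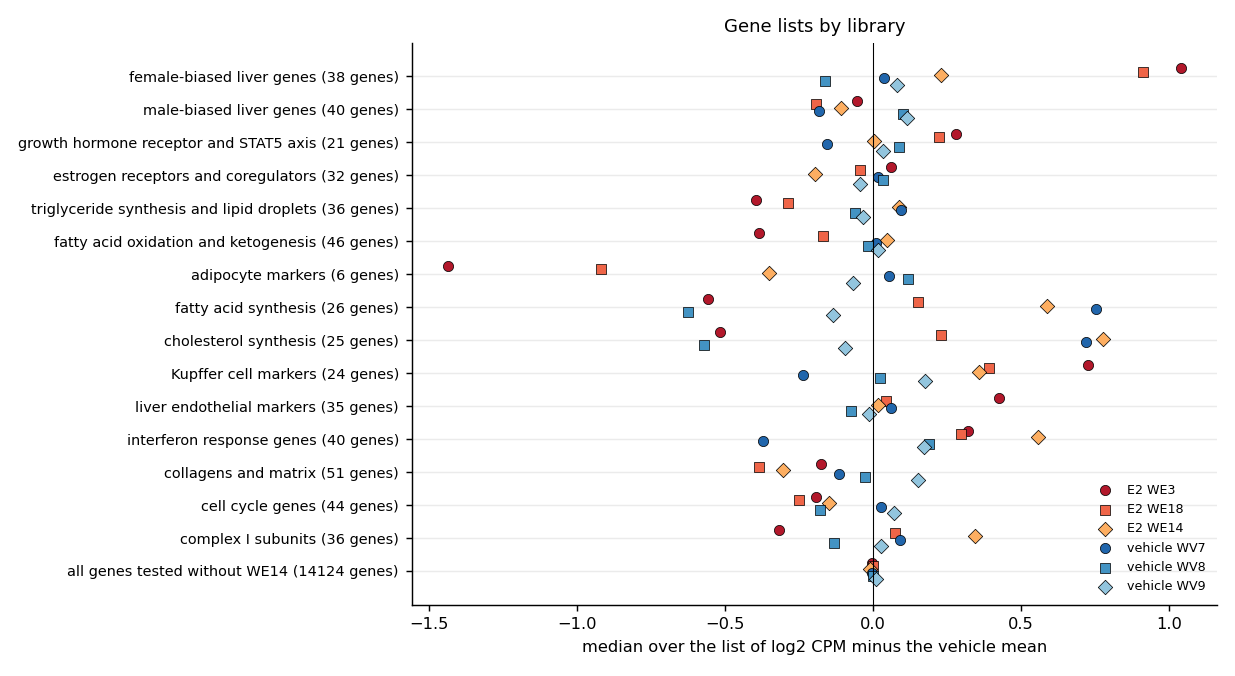
Median over the tested genes of each of 15 lists, and over all genes, of log2 CPM minus the vehicle mean (x axis, log2 units), 1 point per library with the E2 livers above the vehicle livers in each row. WE3 and WE18 stand at 1.04 and 0.91 for the female-biased list, against -0.16 to 0.08 for the vehicle livers, and all 3 E2 livers are right of the vehicle livers for Kupffer cell markers.

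Of 33 acute phase genes tested, 2 were higher and 0 lower without WE14, and of 44 coagulation and complement genes 1 was higher and 1 lower. Of all genes tested, 0.474% were higher and 0.467% lower. Hamp, which encodes the iron hormone hepcidin, had 788, 934 and 273 CPM in the E2 livers WE3, WE18 and WE14, against 376, 283 and 222 CPM in the vehicle livers. WE14 was below the highest vehicle liver, and the log2 fold change was 1.55 ± 0.30 without WE14 (adjusted p = 0.0448) and 1.18 with it. F11, coagulation factor XI, had 93.2, 83.3 and 38.7 CPM with E2, against 36.4, 43.7 and 37.8 CPM with vehicle, and was 1.17 ± 0.16 without WE14 (adjusted p = 0.00448, log2 fold change 0.87 with all 3). Apcs, serum amyloid P, had 145, 152 and 98.9 CPM with E2, against 73.7, 70.6 and 88.6 CPM with vehicle, with no overlap between the groups, and was 0.94 ± 0.19 without WE14 (adjusted p = 0.04, log2 fold change 0.77 with all 3). Enho, which encodes adropin, a hepatokine, had 8.77, 7.5 and 0.382 CPM with E2, against 0.622, 0.48 and 1.65 CPM with vehicle, and was 3.16 ± 0.48 without WE14 (adjusted p = 0.011, log2 fold change 2.6 with all 3). The lower gene of the coagulation and complement list was Cfd.

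Of the 631 genes above (4.54%) and 767 below (5.52%) without overlap between all 3 E2 and vehicle livers, those ranked first by fold or by DESeq2's p included the following. Plin4, a lipid droplet protein, had 4.93, 6.17 and 7.4 CPM with E2, against 12.6, 32.3 and 16.2 CPM with vehicle, lowest in the E2 livers, with -1.73 ± 0.39 in edgeR (unadjusted p = 0.0013) and an adjusted p of 0.00352 in DESeq2. The uncharacterized 1810064F22Rik had 0.769, 0.925 and 0.668 CPM with E2, against 2.92, 2.66 and 2.52 CPM with vehicle, at -1.77 ± 0.30 (unadjusted p = 6.03e-05). Htra4, a serine protease, had 3.03, 2.88 and 0.764 CPM with E2, against 0.239, 0.524 and 0.291 CPM with vehicle, at 2.63 ± 0.51 (unadjusted p = 0.000227) and 3.03 ± 0.37 without WE14 (adjusted p = 0.00236). WE14 was level with WE3 and WE18 for 1810064F22Rik and near them for Plin4, but not for Htra4. Serpina1d, an α1-antitrypsin gene, had 2826, 3342 and 2623 CPM with E2, against 2037, 1807 and 1822 CPM with vehicle, at 0.63 ± 0.14 (adjusted p = 0.00457 in DESeq2). Sybu, a kinesin adaptor, had 9.99, 13 and 4.34 CPM with E2, against 3.11, 2.93 and 3.59 CPM with vehicle, and Snai3, a zinc finger repressor, 1.9, 4.63 and 0.573 CPM with E2, against 0.479, 0.306 and 0.145 CPM with vehicle. Themis, a T cell signaling protein, had 0.362, 0.206 and 0.716 CPM with E2, against 2.39, 3.93 and 1.21 CPM with vehicle, at -2.53 ± 0.52 (adjusted p = 0.00457 in DESeq2). H19, an imprinted noncoding RNA of fetal liver, had 0.271, 0.72 and 3.44 CPM with E2, against 6.41, 7.16 and 8.39 CPM with vehicle, at -2.31 ± 0.84 (unadjusted p = 0.0266). Without WE14 the log2 fold changes were -1.88 for Plin4, -1.67 for 1810064F22Rik, 0.71 for Serpina1d, -3.11 for Themis and -3.9 for H19, of which Plin4 and H19 did not pass (adjusted p = 0.174 and 0.0746). The remaining genes of this kind by the naming rule were Igha, higher at 1.4, and Sprr1a, Serpinb1c, Mup11 and Cfap54, lower at -3.65, -3.0, -2.6 and -1.79.

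Other genes passed without WE14 while WE14 stood near the vehicle livers. Cyp2c55, a cytochrome that oxidizes arachidonic acid, had 1.58, 1.03 and 5.82 CPM with E2, against 9.19, 6.29 and 7.61 CPM with vehicle, and was -2.54 ± 0.27 without WE14 (adjusted p = 0.00116, log2 fold change -1.45 with all 3). Ly6d, a surface protein of epithelial and B cell precursors, had 2.4, 2.16 and 21 CPM with E2, against 15.8, 15.2 and 33.6 CPM with vehicle (-3.23 ± 0.38, adjusted p = 0.00374, log2 fold change -1.33 with all 3), and Osbpl3, an oxysterol-binding protein, had 1.18, 1.18 and 5.49 CPM with E2, against 9.43, 7.6 and 6.01 CPM with vehicle (-2.7 ± 0.34, adjusted p = 0.00298, log2 fold change -1.55 with all 3). Raet1d, a stress ligand of NK cells, had 12.2, 11.4 and 55.1 CPM with E2, against 55.5, 77.7 and 58.5 CPM with vehicle (-2.43 ± 0.30, adjusted p = 0.00443, log2 fold change -1.28 with all 3). In all 4, WE3 and WE18 were the lowest of the 6. Slc35f2 and Pnldc1 were lower at -3.37 ± 0.64 and -2.53 ± 0.36, and Col4a3 and Serpina4-ps1 higher at 1.86 ± 0.39 and 2.29 ± 0.47, with adjusted p up to 0.0464.

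Genes of other lists passed singly without WE14, where 0.474% of all genes tested were higher and 0.467% lower. Ccnd1, cyclin D1, had 166, 192 and 94 CPM with E2, against 103, 67.1 and 83.4 CPM with vehicle, and was the 1 of 44 tested cell cycle genes that passed without WE14 (1.08 ± 0.22, adjusted p = 0.0401, log2 fold change 0.83 with all 3), while the list's median was -0.30. Cry1, a repressor of the circadian clock, had 9.13, 14.5 and 3.67 CPM with E2, against 5.98, 3.41 and 3.2 CPM with vehicle and was the 1 of 22 clock genes that passed (1.49 ± 0.29, adjusted p = 0.0309, log2 fold change 1.12 with all 3). Notum, a Wnt inhibitor of pericentral hepatocytes, had 50.6, 57 and 28.7 CPM with E2, against 25.5, 35.8 and 29.7 CPM with vehicle (0.83 ± 0.16, adjusted p = 0.0309, log2 fold change 0.58 with all 3). Alas2, the erythroid enzyme of heme synthesis, had 12, 15.7 and 35 CPM with E2, against 38.2, 42.9 and 44.9 CPM with vehicle, lower in each E2 liver (-1.6 ± 0.22 without WE14, adjusted p = 0.0045, log2 fold change -1.01 with all 3), while the globin gene Hba-a1 had 21.9, 30.2 and 48.2 CPM with E2, against 24.7, 26.6 and 26.2 CPM with vehicle and did not pass. Gsta1, a glutathione transferase, had 0.316, 0.154 and 0.668 CPM with E2, against 1.87, 1.18 and 2.62 CPM with vehicle, and its value of -2.28 ± 0.62 with all 3 livers had an unadjusted p of 0.00308 and did not pass without WE14 (adjusted p = 0.105). Complex I subunits had 0 of 36 called without WE14, and their direction depended on WE14. With all 3 E2 livers the median was 0.06 and 28 of the 36 were above 0. Without WE14 the median was -0.11 and 33 of the 36 were below 0. By library the list stood at -0.32, 0.08 and 0.34 in WE3, WE18 and WE14, against 0.09, -0.13 and 0.03 in WV7, WV8 and WV9. The mitochondrial genes Fdx1, Etfb, Ndufb4 and Ndufa2 lay between 0.06 and 0.16 with all 3 livers.

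The ob/ob livers gave a measure of E2 that shares no library with the DIO comparison. Genotype, diet and any difference in library preparation cannot be told apart between the models, so effects and not levels were compared. The file names of the DIO and ob/ob libraries carry index sequences of different lengths. There, E2 raised 1318 of 13433 genes (9.81%) and lowered 1654 (12.3%) at an adjusted p under 0.05 in edgeR. Of the 67 genes higher in DIO liver without WE14, 57 were tested in ob/ob liver, 43 were above 0 and 23 rose (40.4%), while 1 fell, with a median log2 fold change of 0.54. Of the 66 lower genes, 62 were tested, 43 were below 0 and 15 fell (24.2%), while 4 rose, with a median of -0.27.

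Several female-biased genes were higher with E2 in both models. In ob/ob liver the log2 fold changes were 4.91 ± 0.60 for Cyp2c69, 4.82 ± 0.79 for Cyp3a16, 4.25 ± 0.41 for A1bg and 2.81 ± 0.61 for Cyp3a44, with adjusted p between 0.00107 and 0.00841. Esr1 was 0.75 ± 0.22 (adjusted p = 0.0275), Dct 1.79 ± 0.35 (adjusted p = 0.00696) and Cux2 2.84 ± 0.41 (adjusted p = 0.00364). Mup20 was -2.88 ± 0.40 and Cd36 -0.74 ± 0.16, both lower in both models (adjusted p = 0.00463 and 0.00826 in ob/ob liver). None of these genes had a difference between the models that passed, the smallest adjusted p of the interaction without WE14 being 0.0539 for Cyp2c69, which does not show that the models respond alike. Other genes of the female list stood otherwise. Cyp2b13, lower in DIO liver, had 329, 275 and 205 CPM in the E2 livers and 59.8, 31.9 and 217 CPM in the vehicle livers in ob/ob mice, with an adjusted p of the interaction of 0.0611. The interactions of Slc22a29, Slc16a5, Cyp39a1 and Cyp2c40 passed without WE14, at -2.37, 1.13, 1.37 and -3.19. Of these, Cyp2c40 also passed with WE14 kept, at -3.27 (adjusted p = 0.0207 by edgeR's interaction test).

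The difference between the models was itself tested as an interaction over all 18 libraries. With WE14, 2 of 14171 genes passed (0.0141%), F2r and Cyp2c40 (named for being the 2), and without WE14 831 of 14431 (5.76%), among them 19 of the 67 higher and 37 of the 66 lower genes. Those genes were chosen on the DIO livers that also enter the interaction, so nothing is read from these counts against that share. Col5a3 was lower in DIO liver, while in ob/ob liver its log2 fold change was 0.71 ± 0.17 (adjusted p = 0.0142), a difference of -2.38 ± 0.34 (adjusted p = 0.00197). Ociad2 was -2.76 ± 0.19 in DIO liver without WE14 and -0.45 ± 0.10 in ob/ob liver, and Mogat1 was -2.72 ± 0.38 and -0.27 ± 0.17. Both differences passed (adjusted p = 2.39e-06 and 0.00277). Cyp39a1 was 1.06 ± 0.16 in DIO liver without WE14 and -0.30 ± 0.15 in ob/ob liver, with an adjusted p of the difference of 0.00335. Cfd had 0.66, 0.722 and 0.669 CPM in the E2 livers and 0.13, 0 and 0 CPM in the vehicle livers in ob/ob mice, too low to be tested there.

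**Figure D5:**
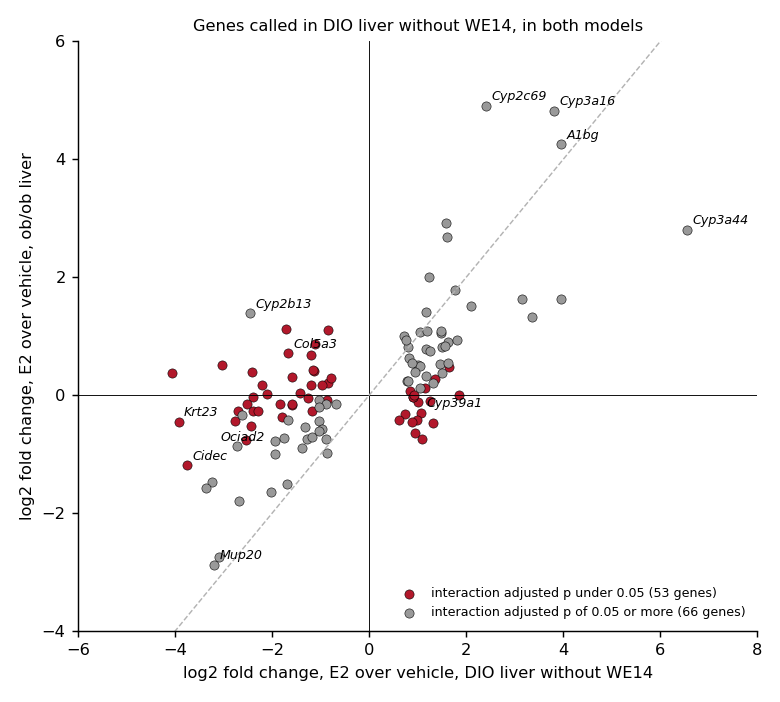
Log2 fold changes of E2 over vehicle in DIO liver without WE14 (x axis) and in ob/ob liver (y axis) for the 119 of the 133 called genes that were tested in both models, with those whose interaction had an adjusted p under 0.05 in red and a dashed line of equal change. Cyp3a16, A1bg and Mup20 lie near that line, while Col5a3 and Ociad2 lie away from it, at 0.71 and -0.45 in ob/ob liver.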

How the data were processed

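Polyadenylated RNA of whole liver was sequenced with a strand-specific library, and per the submitters' processing notes and the file headers the authors used CASAVA 1.8.2, STAR 2.7.6a, and featureCounts 2.0.0 with its strand option on RefSeq genes of GRCm39. The study's methods instead name TopHat for mapping and StrandNGS for quantification. The deposited values are raw counts per gene. The authors' 4 tables of DESeq2 results hold fold changes, p-values and 36 columns of normalized counts, none of which was used.

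Counts were normalized by TMM and tested in edgeR 4.0.16 (R 4.3.3; quasi-likelihood, filterByExpr, Benjamini-Hochberg over all tested genes) with the PaPE-1 livers in the fit. The ob/ob livers were fitted alone, and the interaction over all 18 libraries. Library scores used log2 CPM with a prior count of 2. DESeq2 1.42.0, limma 3.58.1 (voom), other size factors, other filters, a gene length correction and the omission of each library were tried, and the tests were checked on simulated data. The labels call the libraries of a group biological replicates.

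The lists and tests were chosen with earlier results of these data known. Genes were named by rule: the 10 largest non-overlapping differences each way with all 3 E2 livers, the 15 largest each way without WE14 (both at a mean of at least 1 CPM), the 10 smallest p of DESeq2, up to 5 genes of each list with the smallest p and its defining markers, and 13 genes of the study's interest. Some genes that the rule selects are not reported here.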

Additional observations from a re-analysis of the deposited data

Results flagged for a closer look

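The effect of E2 in DIO liver without WE14 differed from that in ob/ob liver by the interaction test of edgeR for these named genes, the value being the DIO minus the ob/ob log2 fold change. It was above 0 for Ccnd1 1.84, Csad 1.19, Cyp39a1 1.37, Dnajb1 0.96, Ern1 1.05, F2r 1.5, Fkbp5 1.36, Lifr 1.09, Slc16a5 1.13, Snai3 3.46 and Sybu 1.85. It was below 0 for Alas2 -1.42, Car3 -1.97, Cfd -10.9, Cidec -2.55, Col5a3 -2.38, Cyp2c40 -3.19, Cyp2c55 -1.77, Cyp4a32 -1.58, H19 -4.08, Krt23 -3.46, Lgals1 -1.67, Mogat1 -2.43, Mup3 -1.94, Ociad2 -2.31, Pnldc1 -2.36, Pparg -0.89, Raet1d -1.9 and Slc22a29 -2.37. The adjusted p ran up to 0.0425. The ob/ob counts of Cfd and Snai3 were under the filter there, so their differences depend on the prior count. With WE14, Cyp2c40 and F2r alone passed the interaction test, at -3.27 and 1.47 (adjusted p = 0.0207 and 0.0285). The causes were not tested.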

How the results depend on the processing

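No paired analysis was possible because the groups share no replicate numbers. With all 3 E2 livers, the 0 higher and 0 lower genes at an adjusted p under 0.05 became 18 and 5 in DESeq2 and 1 higher without a filter on low counts, and 0 to 67 higher and 0 to 66 lower when 1 library was left out, the highest without WE14. The 77 higher genes past the fold of 2 became 51 in limma voom, 136 without a filter and 46 with at least 10 counts in every library, and the 100 lower ones 244 without a filter and 39 with at least 10 counts. Leaving out 1 library gave 45 to 146 higher and 70 to 291 lower, the fewest higher and lower without WE18 and the most without WE14. Without WE14, the 67 higher and 66 lower genes became 153 and 165 in DESeq2 and 203 and 188 without a filter. Leaving out 1 more library gave 25 to 48 higher and 13 to 50 lower, and the numbers were 25 and 13 without WE3, 35 and 30 without WE18, 36 and 34 without WV8, and 37 and 43 without WV9. With WE3 or WE18 also out, the lone E2 liver was assumed to vary like the other groups. Of the 133 genes, 114 were called again by limma voom, 133 by DESeq2 and 122 after removal of a length trend, but 33 without WE3, 45 without WE18, 83 without WV7, 67 without WV8 and 72 without WV9. Every gene tested in a setting kept its sign, with 116 of the 133 tested at 10 or more counts. Since the 133 were chosen on the same counts, nothing is read from the kept signs. The interaction passed in 2 genes with WE14, 831 without it and 338 in DESeq2. The causes of these differences were not tested.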

Other observations

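Further genes, chosen after their values were seen, had WE3 and WE18 on one side and WE14 nearer the vehicle livers. WE14 was within the vehicle range except for Fkbp5, where it lay above every vehicle liver, and Aldh1a1, where it lay below. Csad, which makes taurine from cysteine for bile acid conjugation, had 148, 151 and 42.8 CPM with E2, against 50.6, 53.6 and 38.2 CPM with vehicle (1.65 ± 0.17 without WE14, adjusted p = 0.000891, log2 fold change 1.26 with all 3). Lifr, the receptor of leukemia inhibitory factor and a gene higher in female liver, had 443, 543 and 159 CPM with E2, against 138, 209.8 and 230.2 CPM with vehicle (1.35 ± 0.22, adjusted p = 0.011, log2 fold change 0.98 with all 3). Fkbp5, a co-chaperone of steroid receptors, had 92.7, 85.6 and 46.5 CPM with E2, against 39.9, 33.1 and 39.6 CPM with vehicle (1.25 ± 0.16, adjusted p = 0.00374, log2 fold change 1.0 with all 3). The chaperone gene Hsph1 had 73.6, 84.2 and 29.1 CPM with E2, against 42.3, 24.3 and 29.2 CPM with vehicle, and Dnajb1 had 36.2, 39 and 18.8 CPM with E2, against 24.8, 17.3 and 18 CPM with vehicle, so that both rose in WE3 and WE18 (adjusted p = 0.011 and 0.0226). On the lower side, Aldh1a1, a retinal dehydrogenase, had 573, 663 and 1202 CPM with E2, against 1409, 1465 and 1649 CPM with vehicle (-1.29 ± 0.17, adjusted p = 0.00374, log2 fold change -0.89 with all 3), and Lgals1, galectin 1, had 11, 20.1 and 54.5 CPM with E2, against 64.1, 46.5 and 55.8 CPM with vehicle (-1.84 ± 0.26, adjusted p = 0.00653, log2 fold change -0.96 with all 3). All adjusted p here are from edgeR's quasi-likelihood test without WE14 and carry the limit that WE14 was set aside for its values.

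Lists not described above had few calls without WE14, where 0.474% of all genes tested were higher and 0.467% lower. Of 31 genes of apolipoproteins and lipoprotein handling, 8 lay above every vehicle liver in every E2 liver and 1 below (4.54% and 5.52% of all tested genes), with a median of 0.13 with all 3 E2 livers and 0 called without WE14. Liver endothelial markers had a median of 0.17, with 30 of 35 above 0, against 7138 of the 13884 genes tested, and 0 called. By library the list stood at 0.43, 0.04 and 0.02 in WE3, WE18 and WE14, against 0.06, -0.07 and -0.01 in WV7, WV8 and WV9. WE3 alone was thus beyond the vehicle livers. Bile acid genes had a median of 0.01 with all 3 and 1 of 33 called without WE14, Cyp39a1. Of 37 genes of the unfolded protein and integrated stress response, Ern1, a sensor of the endoplasmic reticulum, was the 1 called without WE14, with 73.9, 64.9 and 33.9 CPM with E2, against 41.8, 47.1 and 46.5 CPM with vehicle (0.62 ± 0.13, adjusted p = 0.0457, log2 fold change 0.35 with all 3). Neutrophil granule genes were few, but WE3 held 22 counts of Ngp, against 4 in WE18, 1 in WE14 and 0, 0 and 2 in the vehicle livers. By library the median of the list stood at 0.77, 0.34 and -0.27 in WE3, WE18 and WE14, against -0.60, 0.12 and 0.43 in WV7, WV8 and WV9. WE3 was thus the highest by this measure too, but WE18 lay within the vehicle range. None of the genes tested was called without WE14. The summed level of the list had another order, with 45.1, 28.9 and 31.3 CPM in WE3, WE18 and WE14, against 23.8, 40.6 and 75.0 CPM in WV7, WV8 and WV9.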
